A study of Musca domestica with 24 samples.

Results

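Heads of the house fly, Musca domestica, of the IsoCS strain were compared between flies raised at 29 °C and flies raised at 18 °C. The comparison uses 6 of the 24 RNA sequencing libraries of the study, taken by their labels as 3 replicates of IsoCS heads at 29 °C and 3 of IsoCS heads at 18 °C. The study as a whole measured head and testis in the strains CSrab and IsoCS at both developmental temperatures. Both strains are described as isogenic apart from the proto-Y chromosome, a young Y chromosome that carries the male-determining gene, so the IsoCS groups share strain and proto-Y and differ in rearing temperature. The labels give neither the sex, the age nor the number of flies behind a head sample, and nothing beyond temperature is said to differ between the IsoCS head groups.

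Flies are ectotherms, so the temperature of rearing sets how fast the larva and pupa develop and, in many species, the size and pigmentation of the adult. Heat also acts on cells directly: heat shock proteins are chaperones that bind unfolded proteins and are induced by high temperature. In the house fly the male determiner sits on several proto-Y chromosomes, whose frequencies in natural populations vary with climate. The adult head holds the compound eyes, brain, antennae, muscle and fat body. In such bulk tissue, a lower level can come from fewer cells of a type or from less RNA per cell, which cannot be told apart.

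Library structure within the IsoCS heads did not follow temperature alone. Depth was 24.3, 28.8 and 23.4 M counts (M for mega) in the 29 °C replicates 1 to 3, against 18.5, 18.7 and 15.7 M counts in the 18 °C replicates. On log2(CPM + 1) values, where CPM is counts per M counts on scaled library sizes, 29 °C replicate 3 correlated across genes at 0.960 and 0.935 with replicates 1 and 2 of its own group. Its correlation was higher with 18 °C replicates 1 and 3, at 0.975 and 0.980. The 18 °C replicate 2 correlated at 0.950 and 0.958 with replicates 1 and 3 of its own group, and at 0.959, 0.932 and 0.959 with 29 °C replicates 1 to 3. The labels were used as given, and whether libraries had been exchanged was not tested. The first principal component held 52.0% of the variance of the 6 libraries, and temperature accounted for 49.4% of that component. On it, the 29 °C libraries scored 35.8, 65.1 and −17.2, against −44.3, 1.68 and −41.1 for the 18 °C libraries, so the groups overlap there. On the second, which held 21.0% of the variance, 18 °C replicate 2 scored 49.7 and the other 5 libraries lay between −27.4 and 13.1. Head identity was checked on the few genes with a symbol: Mda2, a nicotinic acetylcholine receptor subunit, lay between 65.5 and 89.1 CPM over all 12 head libraries, against 0.576 to 4.65 CPM in testes. The neuropeptide gene pdf lay between 7.20 and 23.3 CPM in heads, against 0.0303 to 0.150 CPM in testes. Other symbols did not mark heads: IR25a, an ionotropic receptor gene, lay between 8.34 and 18.6 CPM in heads, against 149 to 218 CPM in testes, and the ranges of para-like and nAChRbeta3 overlapped between the tissues.

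**Figure D1:**
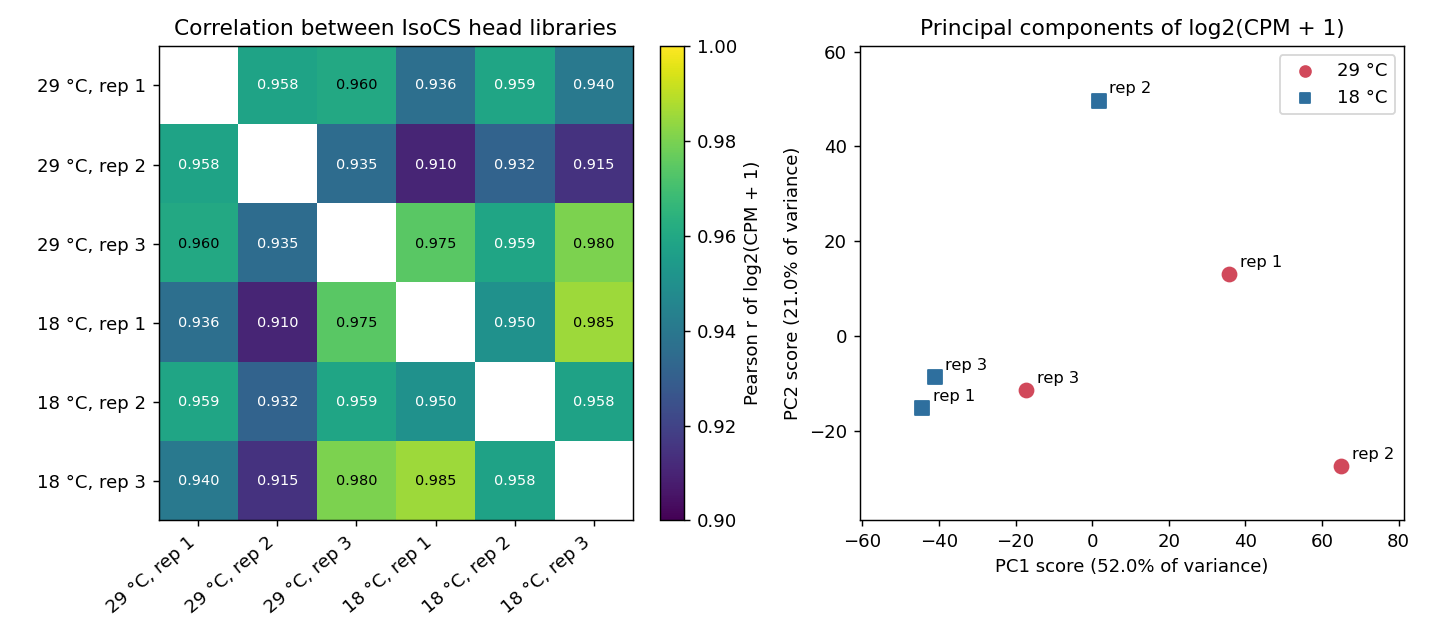
Correlation of log2(CPM + 1) values across genes between the 6 IsoCS head libraries (colour scale, Pearson's r) and their scores on the first 2 principal components (axes, with the share of variance of each). The 29 °C replicate 3 has a first-component score of −17.2 and lies nearer the 18 °C replicates 1 and 3 than its own group.

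Called genes moved both ways, and their number depended on the test. Of 12347 genes tested, 86 were called at an adjusted p under 0.05 (0.697%), 47 of them higher at 29 °C (0.381%) and 39 lower (0.316%). The median log2 change, 29 °C over 18 °C, was 1.24 among the higher genes and −1.56 among the lower genes, beside 0.0051 over all genes tested. Called changes exceeded 2-fold for 62 genes and 4-fold for 30, 15 in each direction. Of all genes tested, 13.8% changed by over 2-fold, so most changes of that size were not called. All 86 had replicates of the temperatures that did not overlap, which was also true of 26% of all genes tested, 14.3% higher and 11.8% lower at 29 °C. At an unadjusted p under 0.05 there were 2313 genes (18.7%). In the group where it was higher, the mean level of a called gene was under 1 CPM for 5 genes, 1 to 5 CPM for 18, 5 to 100 CPM for 54 and at least 100 CPM for 9. None of the 86 carries a descriptive gene symbol, so no function is assigned to them here and each is given by its identifier, with its Muller element (the chromosome arm shared among flies, A to F) where the authors' table lists one.

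The number of called genes moved with the libraries fitted. All 4 head groups shared 1 estimate of the spread; a fit of the IsoCS head groups alone called 1 gene, LOC109614160, with 2403 genes at an unadjusted p under 0.05. Of the 86 genes, 10 were called in every fit that left out 1 of the 12 head libraries. Without 1 IsoCS library the count was 11, 19 and 116 for 29 °C replicates 1 to 3, and 17, 24 and 19 for 18 °C replicates 1 to 3. Without replicate 2 of CSrab heads it was 27 at 29 °C and 30 at 18 °C. DESeq2's Wald test called 760 genes, all 86 among them, and a replicate block within strain gave 305.

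**Figure D2:**
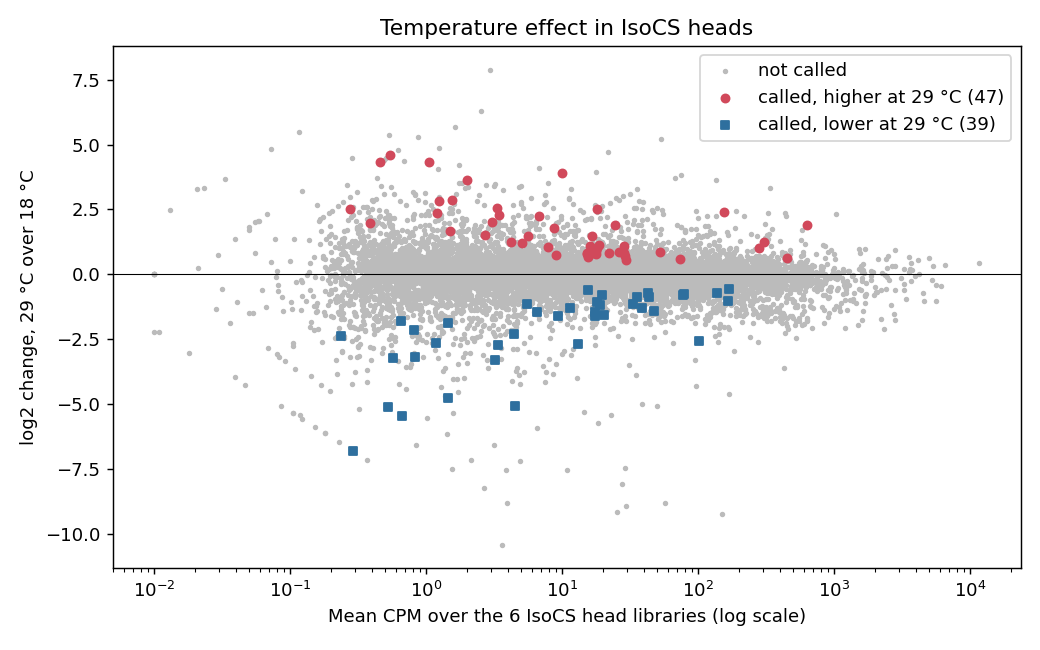
Log2 change (29 °C over 18 °C, vertical axis) against mean level in the 6 IsoCS head libraries (CPM, log axis) for every gene tested, with called genes coloured by direction. The 47 genes called higher and 39 called lower reach a mean of 638 CPM (LOC101894072), below the most abundant genes tested, such as HSP70.

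The genes called in all 12 of those fits were 3 that rose and 7 that fell. LOC101888882, on element D, had 19.6, 24.6 and 11.7 CPM at 29 °C, against 1.73, 0.794 and 1.23 CPM at 18 °C. It rose by 3.89 ± 0.38 (log2, SE; adjusted p = 0.0055), with every 29 °C library far above every 18 °C library. LOC101890638, on element A, had 5.39, 6.55 and 4.98 CPM at 29 °C, against 0.595, 1.08 and 1.17 CPM at 18 °C. Its log2 change was 2.57 ± 0.30 (adjusted p = 0.0077). LOC101897057 had the lowest 18 °C level of the 3, with 2.62, 3.60 and 4.82 CPM at 29 °C, against 0.162, 0.454 and 0.260 CPM at 18 °C, a log2 change of 3.63 ± 0.41.

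Among the 7 that fell, LOC109614160 had the smallest adjusted p of the 12347 genes tested (0.00052). It had 0.312, 0.185 and 0.284 CPM at 29 °C, against 9.84, 8.91 and 7.66 CPM at 18 °C. The log2 change was −5.07 ± 0.35: its RNA was close to undetected in every 29 °C library and moderate in every 18 °C library. Tightly grouped replicates also marked LOC101890413, on element C, which had 30.7, 32.7 and 29.5 CPM at 29 °C, against 53.8, 58.1 and 58.7 CPM at 18 °C. Its change was smaller, −0.88 ± 0.10 (adjusted p = 0.0065). LOC101900429, on element A, had 11.6, 9.48 and 9.93 CPM at 29 °C, against 24.7, 34.2 and 32.8 CPM at 18 °C (log2 −1.56). LOC101892879, on element C, had 1.84, 1.23 and 1.42 CPM at 29 °C, against 8.38, 8.51 and 5.13 CPM at 18 °C (log2 −2.30). The other 3 of the 7, LOC101888021, LOC101887853 and LOC109612487, were low or at 0 in the 29 °C heads and are described with the low-count genes.

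Abundant genes were also among the 47 that rose, though with fewer fits in their favour. LOC101894072, on element B, was the most abundant gene called, with 918, 1276 and 832 CPM at 29 °C, against 249, 288 and 264 CPM at 18 °C. It rose by 1.92 ± 0.27 on the log2 scale, and its call held in 7 of 12 fits without 1 library. LOC101896773, on element A, had 256, 348 and 185 CPM at 29 °C, against 31.0, 66.0 and 51.2 CPM at 18 °C. This log2 change of 2.41 ± 0.42 was called in 5 of the 12 fits. LOC101894344 had 26.3, 41.4 and 24 CPM at 29 °C, against 4.54, 4.94 and 6.68 CPM at 18 °C, and rose by 2.50 ± 0.33. In all 3 genes the 29 °C replicate 2 was the highest library, and replicate 3 of that temperature was the lowest of its group.

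Other abundant genes rose by less. LOC101892255, on element C, had 440, 475 and 372 CPM at 29 °C, against 158, 189 and 197 CPM at 18 °C, a log2 change of 1.24. LOC101896270, listed as a pseudogene, had 413, 376 and 328 CPM at 29 °C, against 169, 197 and 191 CPM at 18 °C. Reads of a pseudogene can come from a similar gene copy, so its value is uncertain. LOC101889454, on element E, had 578, 545 and 526 CPM at 29 °C, against 350, 384 and 340 CPM at 18 °C. Its change of 0.62 was near the smallest called increase, 0.55, and its call held in 1 of the 12 fits. The remaining genes of the naming rule were LOC101888567, LOC109613417, LOC101900512, LOC101887607 and the long non-coding RNA LOC101893948, with log2 changes between 1.49 and 2.29.

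Levels of the genes that fell spanned a like range, with 4 of 39 at 100 CPM or more in the 18 °C heads, beside 5 of the 47 that rose at that level in the 29 °C heads. LOC101895139, on element B, had 26.7, 35.6 and 25.2 CPM at 29 °C, against 215, 105 and 199 CPM at 18 °C. Its fall of 2.57 on the log2 scale was called in 11 of 12 fits without 1 library. LOC105262305 had 4.02, 2.37 and 3.97 CPM at 29 °C, against 21.1, 13.1 and 33.4 CPM at 18 °C (log2 −2.71). In both genes the 18 °C replicate 2 was the lowest of its group. It stood above every 29 °C library, as the naming rule required.

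At the low end, LOC109611757, on element B, had 0.859, 0.492 and 1.34 CPM at 29 °C, against 4.92, 6.01 and 6.75 CPM at 18 °C (log2 −2.72). LOC105262478 had 0.976, 0.400 and 0.405 CPM at 29 °C, against 5.68, 3.35 and 8.57 CPM at 18 °C (log2 −3.30). Its call held in 3 of the 12 fits, whereas that of LOC109611757 held in 11. LOC101895208, on element E, had 8.28, 7.39 and 10.5 CPM at 29 °C, against 27.0, 28.9 and 23.4 CPM at 18 °C (log2 −1.60).

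Some of the smaller falls called had replicates that lay close together. LOC101889074, on element D, had 138, 135 and 139 CPM at 29 °C, against 198, 205 and 208 CPM at 18 °C. Its log2 change of −0.57 was the smallest fall called. LOC101899217, on element A, had 118, 111 and 98.6 CPM at 29 °C, against 240, 223 and 198 CPM at 18 °C (log2 −1.01). LOC101893937 and LOC101900568 fell by 0.72 and 0.77 on the same scale. The falls of LOC101894234, by 1.62, and of the pseudogene LOC109613946, by 1.45, were larger.

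**Figure D3:**
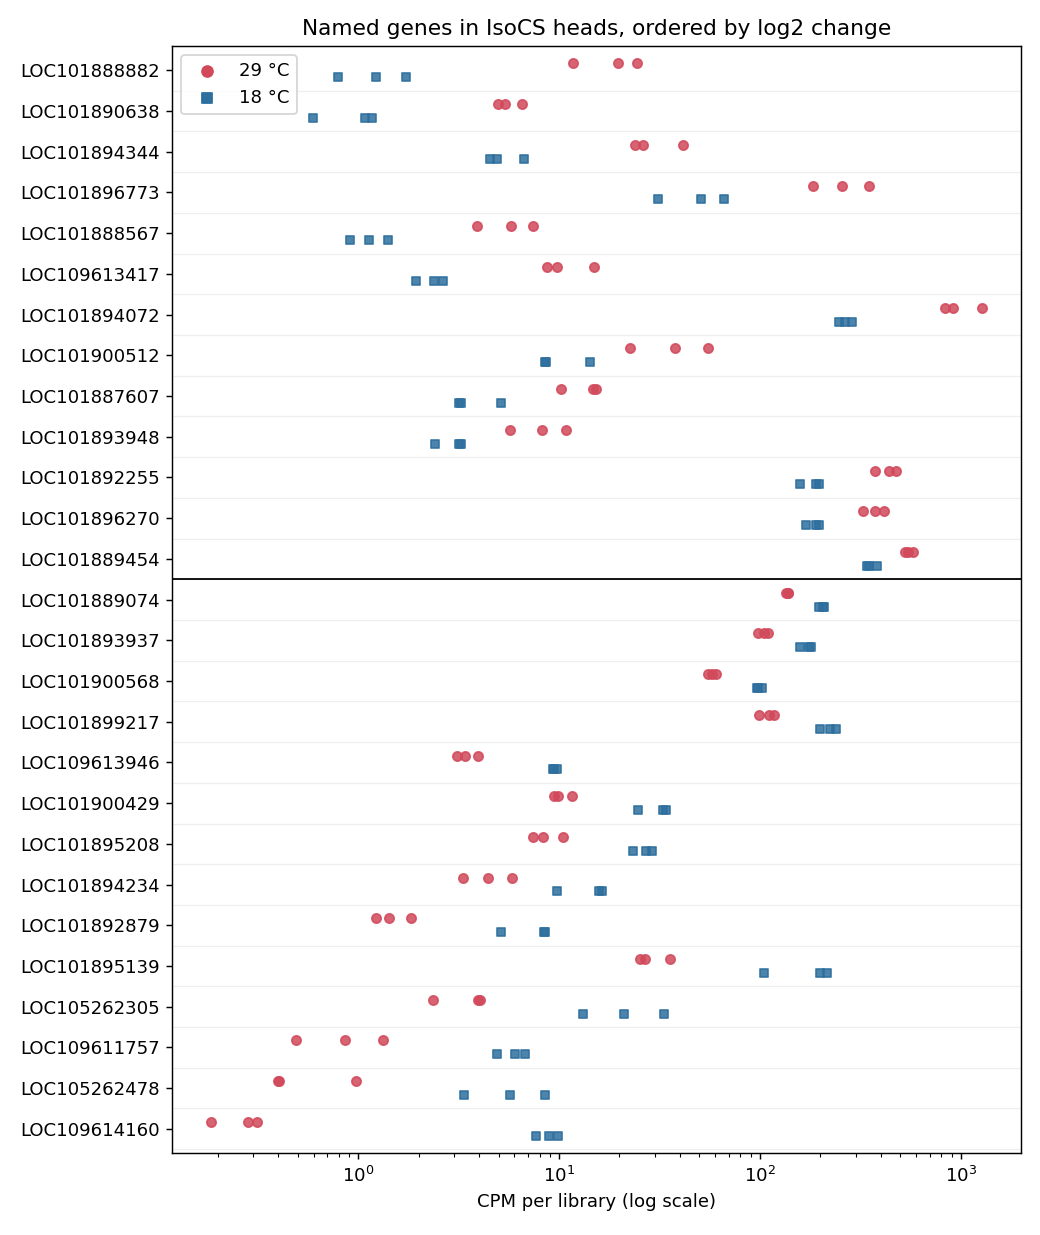
Level (CPM, log axis) of the 27 genes of the naming rule in each IsoCS head library, with the 29 °C row of each gene above its 18 °C row and 1 point per library. For every gene the 3 points of 1 temperature lie apart from the 3 of the other, as the rule required.

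In 8 called genes every library of one temperature had at most 3 counts, so that folds are lower bounds against that floor in each library. LOC109612487, on element B, had 0 counts in all 29 °C libraries, against 11, 11 and 8 counts at 18 °C, at least 5.25-fold lower at 29 °C. LOC101887853, on element D, had 1, 1 and 0 counts at 29 °C, against 25, 13 and 28 counts at 18 °C, at least 11.8-fold lower. LOC101888021, a gene listed on the same scaffold, had 2, 2 and 4 counts at 29 °C, against 51, 30 and 60 counts at 18 °C. Both genes of that scaffold thus had their lowest 18 °C value in replicate 2 and their highest in replicate 3. The long non-coding RNA LOC101901777 had 2, 0 and 0 counts at 29 °C, against 29, 15 and 10 at 18 °C, at least 9.27-fold lower. Among genes near off at 18 °C, LOC101888349, on element E, had 27, 41 and 20 counts at 29 °C, against 2, 0 and 0 counts at 18 °C, at least 5.93-fold higher. LOC109614055, LOC101896886 and LOC109613648 were at least 4.98-fold, 2.69-fold and 3.55-fold higher, and LOC109612626 at least 3.65-fold lower.

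Most called genes lay on separate scaffolds. Of the 75 with a scaffold in the authors' table, 65 were the only called gene of theirs and the other 10 shared 4 scaffolds. One of these, on element A, held LOC101897669, LOC101897841 and LOC101898004, which rose by 1.02, 0.82 and 1.51 on the log2 scale, and LOC101899217, which fell by 1.01, among 82 genes tested there. The other 3 scaffolds held a pair each with like direction. LOC101887853 and LOC101888021, among 8 genes tested there, had log2 changes of −5.48 and −4.75. LOC101888429 and LOC109612838, among 6, had −1.40 and −1.29, and LOC101900512 and LOC109613648, among 4, had 1.88 and 1.98. Over all genes tested the share called was 0.697%, and grouping on scaffolds was not tested.

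By element, called genes made up 0.963% of the genes tested on A (17 of 1765), 0.366% on B (6 of 1641), 0.479% on C (10 of 2089), 0.545% on D (10 of 1834) and 0.490% on E (12 of 2449). On element F, 0 of 34 genes were called. Genes with no element listed made up 31 of the 86, or 1.22% of the 2535 tested. By RefSeq class, 65 of 10545 protein-coding genes were called (0.616%) and 3 of 27 pseudogenes (11.1%), namely LOC101896270, LOC109613946 and LOC109614246. The pseudogenes that fell had like profiles: LOC109613946 had 3.94, 3.11 and 3.40 CPM at 29 °C, against 9.30, 9.42 and 9.80 CPM at 18 °C, and LOC109614246 had 6.87, 6.22 and 6.93 CPM at 29 °C, against 15.7, 15.9 and 17.5 CPM at 18 °C. Differences between these shares were not tested.

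Among the 48 tested genes that carry a descriptive symbol, the quasi-likelihood test in edgeR called 0. An unadjusted p under 0.05 was found for 5 of the 48, where 18.7% of all genes tested had one. At the 0.697% of all genes, a count of 0 among 48 is near the background. Their median log2 change was 0.18, with 31 positive and 17 negative, where 50.5% of all genes tested were positive. DESeq2's Wald test called hsp20 and HSP70.

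Both heat shock genes had higher values in every 29 °C library than in any 18 °C library, as did 14.3% of all genes tested. The small heat shock protein gene hsp20, whose product holds unfolded proteins in solution, had 90.1, 81.1 and 44.3 CPM at 29 °C, against 32.5, 41.8 and 34.9 CPM at 18 °C. Its log2 change was 0.98 ± 0.24, with an edgeR adjusted p of 0.095 and a DESeq2 adjusted p of 0.0088. HSP70, a chaperone that folds proteins with ATP, had 5139, 5316 and 4296 CPM at 29 °C, against 3393, 3575 and 3233 CPM at 18 °C. The log2 change was 0.53 ± 0.20, with an adjusted p of 0.20 by edgeR and of 0.021 by DESeq2. For both genes 29 °C replicate 3 was the lowest of its group. Of the 12 edgeR fits without 1 library, hsp20 was called only in the 1 without that replicate, and HSP70 in 0. Subunits of the CCT chaperonin, the ring complex that folds actin and tubulin, had log2 changes between −0.24 and 0.03, and 0 of 3 were called.

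Detoxification genes, which encode cytochrome P450s, their redox partners, glutathione S-transferases and esterases, showed 0 calls among 11 tested, with a median log2 change of 0.19. Of these, 7 were positive and 4 negative. GST-6A had 461, 436 and 652 CPM at 29 °C, against 364, 304 and 339 CPM at 18 °C, without overlap (adjusted p = 0.29). CYP6D8 had the largest standard error of a log2 change on this list (0.94), with 358, 592 and 253 CPM at 29 °C, against 46.8, 281 and 99.5 CPM at 18 °C, where the 18 °C replicate 2 exceeded the 29 °C replicate 3. The 3 superoxide dismutase genes, whose products remove superoxide, had log2 changes between 0.16 and 0.31 and were not called.

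Of 4 antimicrobial effectors and 5 protease inhibitors tested, 0 were called. Attacin, an antimicrobial peptide gene, had 960, 0.739 and 1.34 CPM at 29 °C, against 1.46, 168 and 5.97 CPM at 18 °C. Diptericin, another, had 576, 1.05 and 1.5 CPM at 29 °C, against 0.595, 120 and 1.75 CPM at 18 °C. In both, 29 °C replicate 1 and 18 °C replicate 2 were the high libraries. Defensin-1 was also highest in that pair of libraries, with 494, 25.8 and 27.1 CPM at 29 °C, against 11.4, 125 and 50.1 CPM at 18 °C. SPN13, a serpin gene, had 1210, 15.2 and 3542 CPM at 29 °C, against 2513, 2343 and 2766 CPM at 18 °C, so that 29 °C replicate 2 alone was low. CPI, listed with the protease inhibitors, had 25.1, 17.6 and 70.2 CPM at 29 °C, against 131, 107 and 103 CPM at 18 °C, with no overlap and an adjusted p of 0.21.

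Of the neuronal receptor and channel genes, 0 of 7 were called. Their log2 changes were positive in this fit, with a median of 0.33, but those of Gr2 and Mda2 turned negative under other settings, to as low as −0.23 and −0.02. The largest was para-like, named for the voltage-gated sodium channel of nerve, with 248, 326 and 131 CPM at 29 °C, against 105, 173 and 123 CPM at 18 °C. Its groups overlapped through 29 °C replicate 3. Mda2 did not move with temperature by more than its spread, at 79.3, 79.1 and 72.4 CPM at 29 °C, against 83.9, 69.4 and 74.0 CPM at 18 °C. The yolk protein gene yp3, a product of fat body, had 1126, 391 and 532 CPM at 29 °C, against 349, 1115 and 439 CPM at 18 °C.

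Of the other genes with a symbol, ODC, which encodes the polyamine enzyme ornithine decarboxylase, had 31.3, 55.5 and 7.25 CPM at 29 °C, against 5.84, 9.82 and 5.13 CPM at 18 °C (adjusted p = 0.21). Again the overlap came from 29 °C replicate 3. Caspase-1, a gene of the cell death protease family, had 54.8, 20.2 and 127 CPM at 29 °C, against 228, 139 and 185 CPM at 18 °C (adjusted p = 0.35). TCTP had 649, 610 and 589 CPM at 29 °C, against 494, 559 and 451 CPM at 18 °C (adjusted p = 0.26). Sxl, the house fly counterpart of the Drosophila sex-determination gene Sex-lethal, had 36.5, 40.5 and 51.4 CPM at 29 °C, against 71.4, 36.5 and 75.9 CPM at 18 °C, with overlap.

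**Figure D4:**
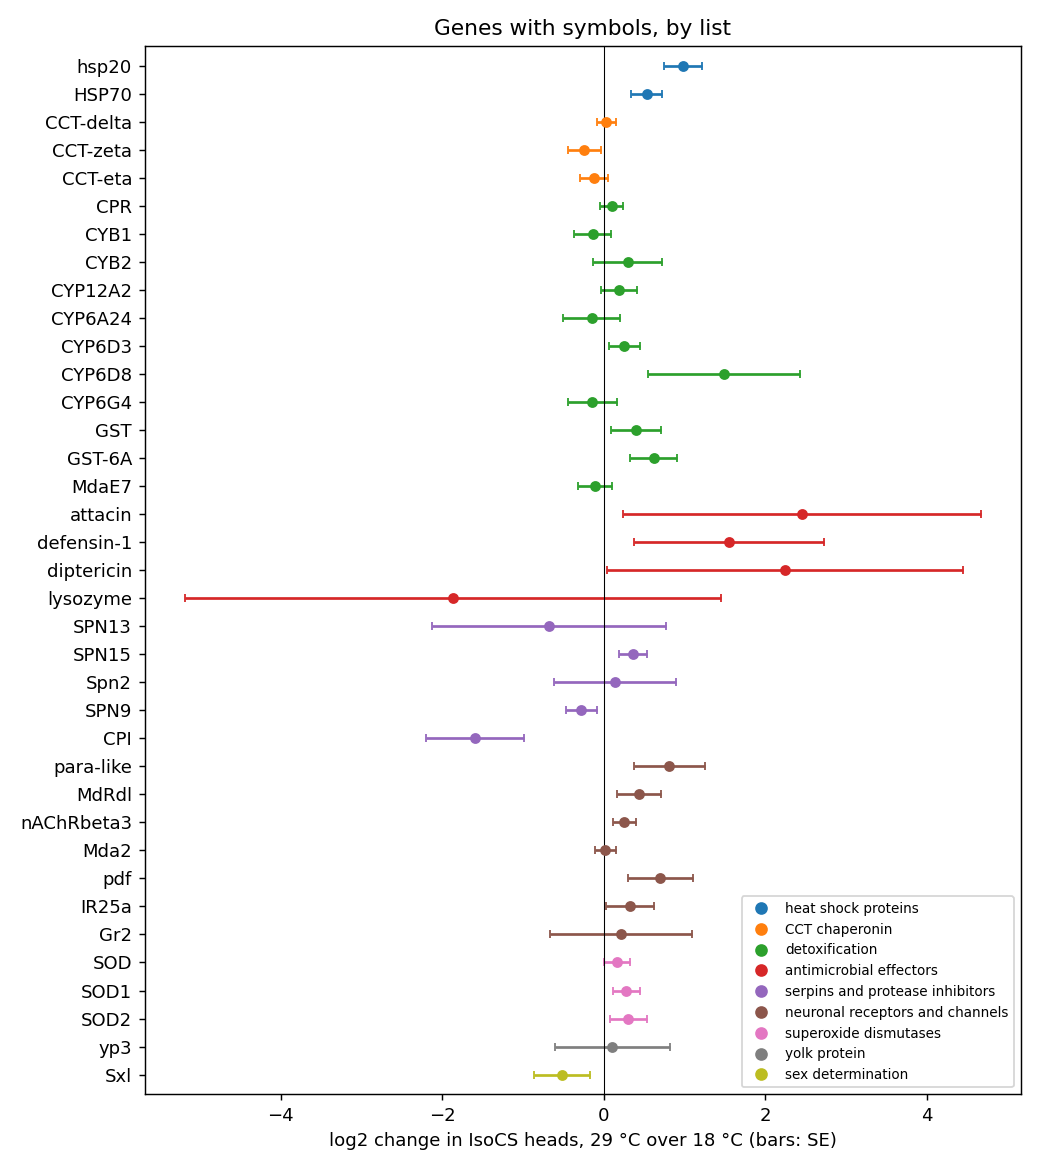
Log2 change (29 °C over 18 °C, bars ± SE from the edgeR fit) of the tested genes on each list of genes with a symbol in IsoCS heads. hsp20 at 0.98 and HSP70 at 0.53 have short error bars, and attacin, diptericin and lysozyme have errors above 2.

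The same temperature contrast was available in heads of CSrab, whose levels come from other libraries. The calls of the strains are not independent, since all 12 head libraries share 1 estimate of the spread. There 35 of 12347 genes were called (0.283%), 17 higher at 29 °C (0.138%) and 18 lower (0.146%). Among the 86 IsoCS genes, 8 of those that rose and 6 of those that fell were called in CSrab. All 47 genes that rose in IsoCS heads had a positive change in CSrab heads, with a median of 0.79, and 32 of the 39 that fell had a negative one, with a median over the 39 of −0.68. Signs were thus shared for 91.9% of the 86, beside 70.7% of all genes tested. The CSrab change was smaller in size than the IsoCS change for 76 of the 86, which were selected for their IsoCS values. Genes called in both strains numbered 14, or 16.3% of the IsoCS calls and 40% of the CSrab calls, and 13 of them had the same sign. LOC101888882 was among these, with a log2 change of 3.89 in IsoCS and 3.15 in CSrab, as were LOC101890638 (2.57 and 2.87) and LOC101895139 (−2.57 and −2.64).

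The difference between the strains was called for 3 of 12347 genes (0.0243%), all 3 of them among the genes that fell in IsoCS heads. That test uses the IsoCS libraries that chose the 86 genes, so those calls are not independent of the choice. LOC109614160 lay between 0.718 and 1.27 CPM in CSrab heads at 29 °C, against 0.331 to 0.574 CPM in CSrab heads at 18 °C, so its high level was seen in IsoCS heads at 18 °C. The change in CSrab minus that in IsoCS was 6.06 ± 0.46 (log2, SE; adjusted p = 0.0014). LOC101899772 had 21.7, 21.3 and 19.6 CPM in IsoCS heads at 29 °C, against 45.2, 37.3 and 54.2 CPM at 18 °C. In CSrab heads it had 36.4, 33.2 and 30.2 CPM at 29 °C, against 17.4, 17.5 and 18.5 CPM at 18 °C, an opposite change that was itself called. Their difference was 2.03 ± 0.19 (adjusted p = 0.0060). LOC109612487, at 0 counts in IsoCS heads at 29 °C, lay between 1.02 and 1.55 CPM in CSrab heads at 29 °C, against 0.945 to 1.29 CPM in CSrab heads at 18 °C. Its adjusted p of 0.013 rose above 0.05 in 9 alternative fits, with values up to 0.44. In the authors' deposited table the adjusted interaction p-value is 4.57e-16 for LOC101899772, 1.62e-21 for LOC109614160 and 0.00029 for LOC109612487. There, 50 of the 13077 genes with a value are under 0.05, among them 12 of the 86, 11 that fell and 1 that rose. The gene that rose is LOC101897057 (deposited value 1.55e-05), with a log2 change of 3.63 in IsoCS heads and 0.20 in CSrab heads. Its interaction in edgeR had an adjusted p of 0.095 and was not called.

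Opposite signs in the strains were seen for 7 of the 86 genes, all 7 of them lower at 29 °C in IsoCS. Of these, 6 have no element listed and 2 are the pseudogenes LOC109613946 and LOC109614246. The remaining members are LOC109612626 and LOC101896952, beside the 3 genes with a called difference.

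**Figure D5:**
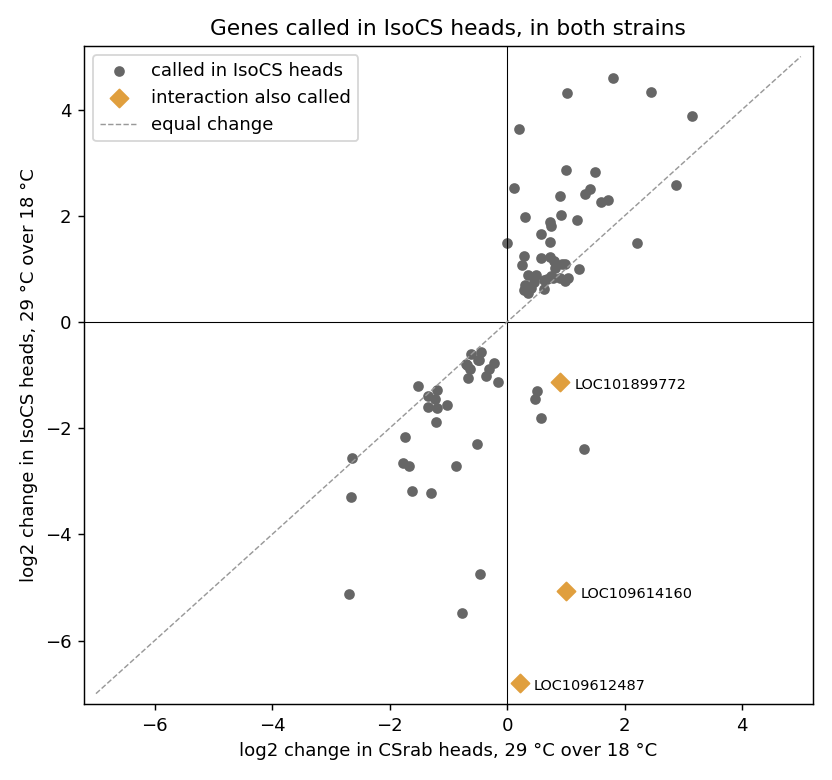
Log2 change (29 °C over 18 °C) of the 86 called genes in CSrab heads (horizontal axis) and in IsoCS heads (vertical axis). The 47 that rose in IsoCS all lie to the right of 0, with a positive change in CSrab. So do 7 that fell in IsoCS, among them LOC109614160, LOC109612487 and LOC101899772.

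Testes of the same strain gave a further view of the same contrast. In IsoCS testes 1383 of 13271 genes were called (10.4%), 878 higher at 29 °C (6.62%) and 505 lower (3.81%), and 83 of the 86 head genes were tested there. Signs in head and testis were the same for 59 of the 83 (71.1%), beside 57.2% of the 11321 genes tested in both tissues. Genes called in both tissues numbered 29, or 33.7% of the head calls and 2.10% of the testis calls, of which 27 had the same sign. The exceptions were LOC101891686, with a log2 change of 2.87 in heads and −2.89 in testes, and LOC101899217, with −1.01 in heads and 0.75 in testes.

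A joint model of all 24 libraries called the difference between testis and head changes for 242 of 14334 genes (1.69%), with 94 differences positive (0.656%) and 148 negative (1.03%). The majority turned with DESeq2 size factors, to 131 positive and 69 negative, and with upper-quartile scaling the counts were 112 and 116. Without 1 library the total lay between 62 and 1336, the highest without IsoCS testis 29 °C replicate 3. Among them were 19 of the 86, 7 positive and 12 negative. The same IsoCS head libraries enter that test and the choice of the 86. LOC101888882 averaged 166 ± 24.6 CPM in testes at 29 °C, against 117 ± 19.0 CPM in testes at 18 °C (SD, n = 3 each), a log2 change of 0.51. It was thus far more abundant in testes than in heads, and its change there was smaller by 3.47 ± 0.41 on the log2 scale. LOC101892879 averaged 211 ± 35.5 CPM in testes at 29 °C, against 220 ± 32.4 CPM in testes at 18 °C, with a log2 change of −0.06, beside −2.30 in heads. LOC101899217 averaged 376 ± 59.3 CPM in testes at 29 °C, against 224 ± 21.9 CPM in testes at 18 °C, the reverse of its fall in heads.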

How the data were processed

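RNA was taken from heads and testes in TRIzol and purified on columns, and stranded polyA libraries were made, per the labels' protocols. The submitters' processing notes name HISAT2, SAMtools, HTSeq and DESeq2 without versions or roles; the genome build and read filters are not given in the sources used here. For each tissue the authors deposited raw, unnormalized counts for 16540 genes in every library. The same tables hold an adjusted p-value for the interaction of strain and temperature, per the file headers. The treatment of reads that match several gene copies is not stated.

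All 12 head libraries (4 groups) were fitted with edgeR 4.0.16 and limma 3.58.1 in R 4.3.3. Genes were kept by filterByExpr (minimum count 10, minimum total 15), scaled by TMM, and tested by the quasi-likelihood F test, with p-values adjusted over 12347 genes by the Benjamini-Hochberg method. Calls are at an adjusted p under 0.05. A standard error is the log2 change divided by the square root of F. A floor of 3 counts per library was used for folds, and it covers counting error only. The difference from testes came from a model of all 24 libraries in 8 groups. The script was tested on simulated counts. Symbols are the gene names the authors deposited. Biotypes came from RefSeq, which holds 13607 of the 16540 genes. Its assembly differs from that of the deposited counts, so no coordinates are given. No replicate pair agreed within sampling noise (chi-square per degree of freedom 49.5 to 371), and whether replicates came from separate cultures is not stated, so p-values measure the spread between these samples.

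Genes were named by a rule: called, no overlap, at least 5 CPM in the higher group, then the 10 largest changes and the 5 highest mean levels in each direction, 27 in all. Genes on the symbol lists or with a called interaction could also be named. Genes called in every fit without 1 library, at the floor, on shared scaffolds, or with unlike changes between strains or tissues were named after their values were seen. Of 14 lists, 9 had a gene with a symbol in the table; clock, phototransduction, neuron, glia and muscle markers had 0. Members and lists were chosen with earlier results of these data known. The alternatives were DESeq2 size factors, upper-quartile scaling, the DESeq2 1.42.0 Wald test, no filter, a mean of at least 10 counts, replicate blocks, thinning to equal depth, only the 2 groups compared, and leaving out each library.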

Additional observations from a re-analysis of the deposited data

Results flagged for a closer look

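The temperature change differed between strains for 3 genes called in IsoCS heads, by the interaction test in edgeR. The log2 change in CSrab heads minus that in IsoCS heads was 2.03 for LOC101899772, 6.06 for LOC109614160 and 7.01 for LOC109612487. The last value is not a bound, since IsoCS heads at 29 °C had 0 counts of that gene.

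The temperature change differed between tissues of IsoCS for 19 genes called in heads, by the joint model of 24 libraries. Differences are the log2 change in testes minus that in heads. Among genes that rose in heads they were −5.85 for LOC101891686, −4.57 for LOC101888349, −3.47 for LOC101888882, −3.14 for LOC101890638, −2.50 for LOC101887607 and −2.48 for LOC101892985. Smaller differences were −1.81 for LOC101899539, −1.55 for LOC101889026, −1.24 for LOC101890121, −1.17 for LOC101900057, −0.97 for LOC101887348 and −0.94 for LOC101888885. Among genes that fell in heads they were 8.35 for LOC101887853, 3.10 for LOC101888021, 3.05 for LOC109613946, 2.27 for LOC101892095, 2.15 for LOC101892879, 1.67 for LOC101899217 and 1.17 for LOC101900612. LOC101887853 and LOC101888349 were at the floor of 3 counts in heads of 1 temperature, so their fitted differences depend on the prior count. Calls of several of these were lost often when 1 of the 24 libraries was left out: LOC101888885 was called in 4 of 24 fits, LOC101887853 in 5, LOC101900057 in 7, and LOC101890121 and LOC109613946 in 11 each. LOC101889026 was called in 14, and the other 13 in 19 or more. All 22 genes were chosen for a called change in heads, and the tests use the same head libraries.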

How the results depend on the processing

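The sign of the change in IsoCS heads was kept for all 86 called genes in every alternative in which each was tested. All 86 had replicates that did not overlap, so their signs could hardly turn, and the kept sign is no independent support. The call was kept in 1033 of 1882 pairs of gene and alternative. Against 86 calls in IsoCS heads, there were 760 with DESeq2's Wald test, 57 with no filter, and 11 to 116 when 1 library was left out. Among IsoCS libraries, 11 calls were left without 29 °C replicate 1, 19 without 29 °C replicate 2, 116 (60 of the 86) without 29 °C replicate 3, and 17, 24 and 19 without 18 °C replicates 1, 2 and 3. Leaving out CSrab replicate 2 at 29 °C or at 18 °C left 27 or 30. Among genes with a symbol, DESeq2 called hsp20 and HSP70, and edgeR called hsp20 without 29 °C replicate 3.

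Whether replicate numbers pair the samples was not settled. Deviations from the group means correlated at −0.20, 0.22 and 0.39 for equal numbers, and between −0.46 and 0.31 for unequal numbers. The 29 °C replicates 2 and 3 were closest to the 18 °C replicate of equal number, whereas 29 °C replicate 1 was closest to 18 °C replicate 2 (0.31). A replicate block left 40 calls, a block within strain gave 305, the 2 groups alone gave 1, and those with a block gave 0 in edgeR, with 2398 genes at an unadjusted p under 0.05. The strain difference, 3 genes, came to 51 with DESeq2 and 2 to 7 without 1 library. The tissue difference, 242 genes, came to 673 with DESeq2, 436 with the block within strain and tissue, and 62 to 1336 without 1 library (1336 without IsoCS testis 29 °C replicate 3). Its split of 94 positive and 148 negative became 131 and 69 with DESeq2 size factors.

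At these depths, 8 called genes had at most 3 counts in every library of 1 temperature, and their folds are bounds. The 29 °C replicate 3, which correlated more with 18 °C replicates 1 and 3 than with its own group, was used under its label. So was 18 °C replicate 2, which correlated at 0.959 with 29 °C replicates 1 and 3 and at 0.958 with 18 °C replicate 3. A possible exchange of labels was not tested.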

Other observations

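Some abundant transcripts differed widely between replicates of 1 temperature, by a criterion chosen after the data were seen: at least 100-fold between libraries of a group, with at least 50 CPM in the highest and values under 0.1 CPM set to 0.1. There were 48 such genes in the 29 °C heads and 36 in the 18 °C heads, 73 in all, of which 0 were called. Over all genes tested the share called was 0.697%. A gene chosen for such a spread within a group can hardly be called, so the 0 is no result about these genes. The 29 °C replicate 2 was the lowest library of its group for 37 of the 48. The 18 °C replicate 2 was the highest of its group for 31 of the 36. LOC101892639 had 0.898, 516 and 0.243 CPM at 29 °C, against 0.541, 2219 and 1.23 CPM at 18 °C, and LOC101891419 had 0.898, 525 and 0.081 CPM at 29 °C, against 0.757, 1239 and 1.23 CPM at 18 °C. In both genes replicate 2 of each temperature was the high library.

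LOC101889208 was high in a single IsoCS head library, with 0.195, 0.185 and 0.365 CPM at 29 °C, against 0, 339 and 0.844 CPM at 18 °C. LOC109614058 was high in the same library, with 0.273, 1.05 and 0.081 CPM at 29 °C, against 0.108, 896 and 0.714 CPM at 18 °C. In CSrab heads, LOC101889208 had 149, 386 and 130 CPM at 29 °C, against 59.4, 6.78 and 0.284 CPM at 18 °C, and LOC109614058 had 268, 639 and 796 CPM at 29 °C, against 97.9, 164 and 0.189 CPM at 18 °C. In IsoCS testes, LOC101889208 had 3970, 18.0 and 309 CPM at 29 °C, against 101, 50.3 and 113 CPM at 18 °C. LOC109614058 had 793, 6.72 and 23.7 CPM in testes at 29 °C, against 12.2, 9.27 and 22.1 CPM at 18 °C, so both were highest in testis 29 °C replicate 1.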
